A study of Mus musculus with 7 samples.

Results

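Gip, Myo15 and Strc each carry a short stretch of sites, densely methylated in wild-type mouse embryonic stem cells and sparsely methylated in cells without Uhrf1. They were taken to be CpG sites, cytosines followed by guanine. The sites were chosen by position (mm10), as every listed cytosine in chr11:96024800-96025000 for Gip, chr11:60479800-60480000 for Myo15 and chr2:121375100-121375400 for Strc. They were 22 of 18189 sites in the table of the Uhrf1 experiment (7, 6 and 9 sites) and 21 of 21989 in the table of the Mof knockdown (7, 5 and 9 sites). The 3 windows had been picked from the comparison of Uhrf1-/- with wild-type cells, so that comparison is given as a description with no test. RNA was not measured, so where these genes are expressed was not checked.

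All 7 libraries came from J1 embryonic stem cells, a mouse line kept in serum with leukemia inhibitory factor, and methylation was read by reduced representation bisulfite sequencing, which samples fragments cut by restriction enzymes. Wild-type and Uhrf1-/- cells had 2 libraries each. Uhrf1-/- cells given a plasmid for flag-myc-tagged human UHRF1 were selected with hygromycin and picked as single colonies; 1 library carried wild-type UHRF1 (wild-type rescue) and 1 carried the changes K667R, K668R and K670R (3KR rescue). Both rescues share the mouse Uhrf1 deletion. The columns of the wild-type rescue were matched to its label by their name, which ends in a digit that no label explains. They were the only library columns left once the other libraries were matched. Every value given for this rescue rests on that match. Cells with a stable Mof knockdown, labelled with no Uhrf1 deletion, had 1 library, and how the knockdown was made is not given in the sources used here. With 1 library each, a colony and its transgene cannot be told apart, and nothing says that the libraries of a pair came from separate cultures.

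UHRF1 recognizes CpG sites that are methylated on only the old strand after DNA replication and brings the methyltransferase DNMT1 to them, so that the pattern is copied to the new strand. MOF is a lysine acetyltransferase, and the series asks how its acetylation of UHRF1 bears on this copying. Gip encodes an incretin, a hormone that enteroendocrine cells of the gut release after a meal and that enhances insulin secretion. Myo15 encodes an unconventional myosin that carries proteins to the tips of stereocilia, the sensory protrusions of hair cells in the inner ear. Strc encodes stereocilin, which links the stereocilia of outer hair cells to each other and to the tectorial membrane.

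The measured sites lie inside the genes, away from the start that RefSeq gives for them. The Gip sites span 96024845 to 96024990 on chromosome 11, in a gene that RefSeq (GRCm38.p6) places on the plus strand from 96024532 to 96030831, and the first site is 313 bases past its start. The deposited table marks all 7 as promoter and intron, between 201 and 56 bases upstream of the start of transcript ENSMUST00000103156.1. The Myo15 sites span 60479828 to 60479953 on chromosome 11, from 10489 bases past the start of a gene that runs on the plus strand from 60469339 to 60528369. All 6 are marked as promoter of transcript ENSMUST00000126522.3 and as both exon and intron. The Strc sites span 121375167 to 121375310 on chromosome 2, from 6060 bases past the start of a gene on the minus strand from 121363248 to 121381370. All 9 are marked as promoter of transcript ENSMUST00000129136.7, 7 of them also as exon and 2 as intron. None of the 22 sites is marked as a CpG island or island shore.

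The RefSeq promoters of the 3 genes are shown, of which those of Gip and Myo15 hold few CpG sites. The promoters run from 250 bases before to 50 bases after a start in GRCm38.p6. Only at Myo15 is it the gene start given above. At Gip it differs from that gene start, and the Strc promoter lies wholly inside the gene as placed above. The promoters are printed 5′ to 3′ on the strand of the gene, with each CG pair in capitals. The Gip promoter is chr11:96024295-96024594 (plus strand), that of Myo15 chr11:60469089-60469388 (plus strand) and that of Strc chr2:121380891-121381190 (minus strand).
Gip: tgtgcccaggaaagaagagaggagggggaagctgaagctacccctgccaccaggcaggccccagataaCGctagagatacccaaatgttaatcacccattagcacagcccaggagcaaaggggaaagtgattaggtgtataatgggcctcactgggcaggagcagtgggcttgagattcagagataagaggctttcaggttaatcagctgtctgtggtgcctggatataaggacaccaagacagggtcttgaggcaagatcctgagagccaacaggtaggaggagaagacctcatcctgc
Myo15: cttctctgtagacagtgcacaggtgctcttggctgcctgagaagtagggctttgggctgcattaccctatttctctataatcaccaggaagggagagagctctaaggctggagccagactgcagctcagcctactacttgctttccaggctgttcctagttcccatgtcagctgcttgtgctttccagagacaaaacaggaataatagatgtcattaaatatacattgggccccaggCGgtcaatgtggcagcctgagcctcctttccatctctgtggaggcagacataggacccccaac
Strc: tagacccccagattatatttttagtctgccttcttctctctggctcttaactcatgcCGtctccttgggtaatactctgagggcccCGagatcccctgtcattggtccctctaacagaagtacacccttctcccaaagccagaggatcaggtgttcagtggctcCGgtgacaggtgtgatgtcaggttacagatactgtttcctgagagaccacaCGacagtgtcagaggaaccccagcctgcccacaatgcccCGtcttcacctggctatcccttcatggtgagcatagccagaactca

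The Gip and Myo15 promoters each hold 1 CG pair in 300 bases and the Strc promoter holds 5. Over 32851 RefSeq promoters of this length the median was 7 pairs, 14.1% had at most 1 and 43.6% at most 5. None of the listed sites falls in these 3 promoters in either table, so the values below belong to the internal windows. Sequence under the measured sites was not used here, so that they are CpG sites was not checked.

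In the rescue table the sites had 8 to 84 reads at Gip, 8 to 54 at Myo15 and 7 to 39 at Strc, and the median over all sites of a library was 10 to 22. In the Mof knockdown they had 23 to 41, 8 to 10 and 7 to 14 reads. Neighbouring sites had near-equal depth, as 26 reads at 5 successive Gip sites in wild-type library 1, and can share reads. The sites of a window are therefore not independent, and intervals below cover counting error only.

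At Gip all 7 sites were high in wild type, the wild-type rescue and the knockdown and low in Uhrf1-/- and the 3KR rescue. At 96024845 the wild-type libraries had 13 of 13 and 37 of 43 reads methylated, Uhrf1-/- 2 of 8 and 3 of 12, the wild-type rescue 37 of 42, the 3KR rescue 3 of 19 and the Mof knockdown 18 of 23. Site 96024863 showed 11 of 13 and 36 of 47 in wild type, against 1 of 8 and 0 of 12 in Uhrf1-/-, 27 of 42 in the wild-type rescue, 1 of 20 in the 3KR rescue and 19 of 23 in the Mof knockdown. The counts for 96024883 were 22 of 26 and 68 of 82 (wild type), 0 of 18 and 0 of 20 (Uhrf1-/-), 61 of 79 (wild-type rescue), 7 of 35 (3KR rescue) and 28 of 41 (Mof knockdown). At each of these 3 sites the 3KR rescue stayed at or below 20%. For 96024909, wild type gave 26 of 26 and 74 of 82, Uhrf1-/- 2 of 17 and 0 of 20, the wild-type rescue 49 of 83, the 3KR rescue 6 of 36 and the Mof knockdown 32 of 39. At 96024919 the wild-type libraries had 26 of 26 and 74 of 83 reads methylated, Uhrf1-/- 2 of 18 and 0 of 17, the wild-type rescue 64 of 81, the 3KR rescue 2 of 37 and the Mof knockdown 24 of 40. The first of these was the lowest Gip site in the wild-type rescue (59.0%, Wilson 95% interval 48.3% to 69.0%), and the second was the lowest in the knockdown (60%). Site 96024942 showed 20 of 26 and 70 of 84 in wild type, against 0 of 17 and 4 of 20 in Uhrf1-/-, 56 of 83 in the wild-type rescue, 8 of 35 in the 3KR rescue and 31 of 40 in the Mof knockdown. The counts for 96024990 were 22 of 26 and 56 of 74 (wild type), 3 of 10 and 1 of 8 (Uhrf1-/-), 55 of 82 (wild-type rescue), 9 of 37 (3KR rescue) and 25 of 39 (Mof knockdown). The last site had the highest Gip share in the 3KR rescue, 24.3%, and the highest in Uhrf1-/- library 1, 30%.

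At Myo15 5 sites were read on the minus strand and a single shallow site on the plus strand. For 60479828, wild type gave 32 of 38 and 16 of 16, Uhrf1-/- 0 of 29 and 4 of 23, the wild-type rescue 18 of 53, the 3KR rescue 0 of 26 and the Mof knockdown 8 of 10. At 60479837 the wild-type libraries had 30 of 38 and 11 of 15 reads methylated, Uhrf1-/- 0 of 29 and 2 of 23, the wild-type rescue 26 of 54, the 3KR rescue 0 of 26 and the Mof knockdown 2 of 10. These were the lowest Myo15 sites of the wild-type rescue, at 34.0% (Wilson 95% interval 22.7% to 47.4%) and 48.1% (35.4% to 61.1%). Site 60479876 showed 34 of 37 and 16 of 16 in wild type, against 0 of 29 and 4 of 23 in Uhrf1-/-, 36 of 54 in the wild-type rescue, 0 of 27 in the 3KR rescue and 8 of 10 in the Mof knockdown. The counts for 60479882 were 39 of 39 and 15 of 15 (wild type), 0 of 29 and 2 of 22 (Uhrf1-/-), 39 of 53 (wild-type rescue), 0 of 27 (3KR rescue) and 8 of 10 (Mof knockdown). No methylated read was seen at these 4 sites in the 3KR rescue, which allows shares of up to 11.5% (26 reads) or 11.1% (27 reads) by a limit of 3 reads, nor in Uhrf1-/- library 1, which allows 10.3%. For 60479909, wild type gave 34 of 38 and 11 of 14, Uhrf1-/- 1 of 19 and 1 of 17, the wild-type rescue 34 of 51, the 3KR rescue 4 of 24 and the Mof knockdown 1 of 8. At 60479953 the wild-type libraries had 8 of 10 and 12 of 18 reads methylated, Uhrf1-/- 0 of 16 and 0 of 10, the wild-type rescue 12 of 14, the 3KR rescue 4 of 8. The last is the plus-strand site, which has no value for the knockdown and whose 3KR share of 50% had an interval of 21.5% to 78.5%.

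Just outside the Myo15 window, 6 and 55 bases past its end, lie another pair of plus-strand sites. At 60480006 wild type had 10 of 10 and 10 of 18 methylated reads, Uhrf1-/- 0 of 16 and 0 of 8, the wild-type rescue 12 of 14 and the 3KR rescue 0 of 8. At 60480055 wild type had 9 of 9 and 6 of 18, Uhrf1-/- 0 of 8 and 0 of 5, the wild-type rescue 11 of 13 and the 3KR rescue 4 of 8. Both were empty in Uhrf1-/- and above 80% in the wild-type rescue, as the plus-strand site inside the window was. Within 50 kb of the windows the rescue table lists 4 sites at Myo15, these included, and 0 at Gip and Strc.

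At Strc 3 neighbouring sites stood out in the 3KR rescue. Site 121375167 showed 7 of 8 and 8 of 11 in wild type, against 2 of 9 and 1 of 8 in Uhrf1-/-, 16 of 19 in the wild-type rescue, 2 of 7 in the 3KR rescue and 7 of 7 in the Mof knockdown. The counts for 121375179 were 15 of 15 and 20 of 23 (wild type), 2 of 17 and 0 of 15 (Uhrf1-/-), 33 of 38 (wild-type rescue), 3 of 15 (3KR rescue) and 12 of 14 (Mof knockdown). For 121375206, wild type gave 6 of 15 and 15 of 21, Uhrf1-/- 3 of 17 and 0 of 16, the wild-type rescue 24 of 39, the 3KR rescue 4 of 16 and the Mof knockdown 0 of 14. The third of these was the least methylated Strc site in both wild-type libraries (40% and 71.4%) and held no methylated read in the knockdown, which allows up to 21.4%. At 121375222 the wild-type libraries had 12 of 15 and 17 of 22 reads methylated, Uhrf1-/- 0 of 16 and 0 of 14, the wild-type rescue 22 of 37, the 3KR rescue 10 of 16 and the Mof knockdown 8 of 14. Site 121375232 showed 16 of 16 and 23 of 23 in wild type, against 0 of 17 and 2 of 14 in Uhrf1-/-, 35 of 39 in the wild-type rescue, 12 of 17 in the 3KR rescue and 12 of 14 in the Mof knockdown. The counts for 121375267 were 16 of 16 and 21 of 22 (wild type), 0 of 17 and 4 of 15 (Uhrf1-/-), 28 of 39 (wild-type rescue), 12 of 17 (3KR rescue) and 11 of 13 (Mof knockdown). These 3 sites were low in Uhrf1-/- but measured 62.5% to 70.6% in the 3KR rescue. For 121375278, wild type gave 16 of 16 and 18 of 24, Uhrf1-/- 4 of 17 and 2 of 14, the wild-type rescue 20 of 38, the 3KR rescue 1 of 16 and the Mof knockdown 13 of 13. At 121375301 the wild-type libraries had 16 of 16 and 17 of 21 reads methylated, Uhrf1-/- 2 of 17 and 0 of 12, the wild-type rescue 34 of 39, the 3KR rescue 4 of 15 and the Mof knockdown 13 of 13. Site 121375310 showed 14 of 16 and 17 of 23 in wild type, against 3 of 9 and 0 of 8 in Uhrf1-/-, 25 of 38 in the wild-type rescue, 3 of 16 in the 3KR rescue and 9 of 13 in the Mof knockdown. At the last 3 sites the 3KR rescue was again low, with 6.25% at 121375278.

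**Figure D1:**
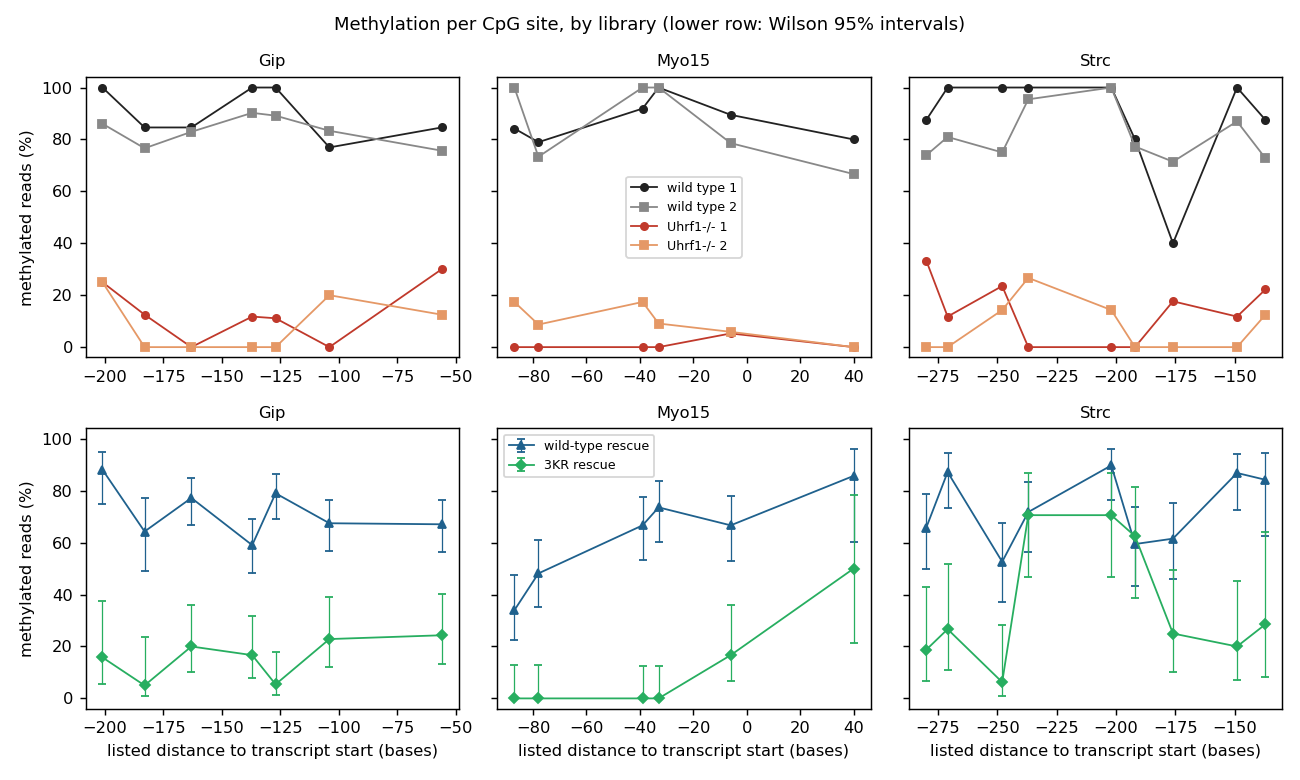
Percent of methylated reads (y axis) at each site of Gip, Myo15 and Strc against the distance to the transcript start listed by the authors, negative upstream (x axis). Uhrf1-/- libraries lie below wild-type libraries at every site, beside 59.3% of all sites of the table, and the windows were picked for this difference. The rescues are shown with Wilson 95% intervals. The 3KR rescue reaches 62.5% to 70.6% at 3 Strc sites and stays at or below 28.6% at the other 6.

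Averaged over its sites, each window was heavily methylated in wild type and sparsely methylated in Uhrf1-/-. The window mean at Gip was 86.8% ± 4.73 in wild type (90.1% and 83.4%) and 10.6% ± 3.32 in Uhrf1-/- (12.9% and 8.21%; SD, n = 2 each), a difference of -76.2 percentage points. At Myo15 wild type averaged 86.9% ± 0.701 (87.4% and 86.4%) and Uhrf1-/- 5.31% ± 6.27 (0.877% and 9.74%; SD, n = 2 each), a difference of -81.6 points. Strc averaged 84.9% ± 4.82 (88.3% and 81.5%) against 10.4% ± 4.13 (13.4% and 7.53%; SD, n = 2 each), a difference of -74.5 points. Both Uhrf1-/- libraries lay below both wild-type libraries at 22 of 22 sites, and they did so at 59.3% of all sites of the table. By size, 17 of the 17 sites with at least 10 reads in these 4 libraries were at least 20 points lower, beside 54.6% of all such sites. The median site difference was -78.5 points, beside -43.4 over all listed sites. The windows were picked for this difference.

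**Figure D2:**
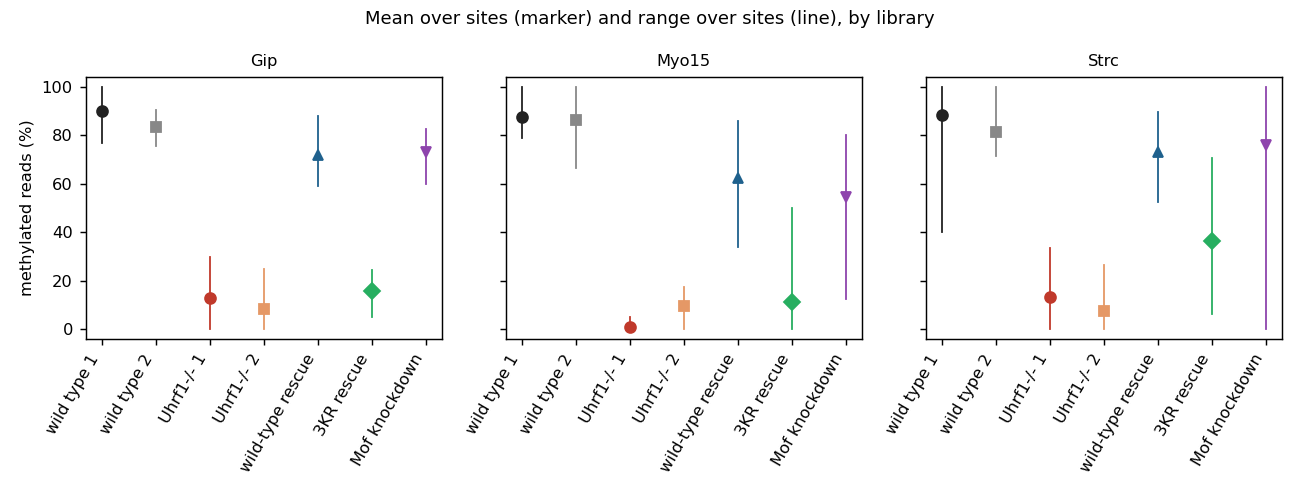
Mean percent of methylated reads over the sites of each window (marker) with the lowest and highest site (line), for each of the 7 libraries. The window means run from 81.5% to 90.1% in wild type over the rescue table's sites and from 0.877% to 13.4% in Uhrf1-/-, the wild-type rescue lies between 62.5% and 73.2%, and the 3KR rescue is at 15.7% (Gip), 11.1% (Myo15) and 36.5% (Strc).

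The colony with wild-type human UHRF1 was methylated well above Uhrf1-/- at all 3 genes and below wild-type cells. Its window means were 71.7% at Gip, 62.5% at Myo15 and 73.2% at Strc, which is 61.2, 57.1 and 62.8 points above the Uhrf1-/- mean. It lay above both Uhrf1-/- libraries at 22 of 22 sites (69.1% of all sites) and was at least 20 points above their mean at 17 of 17 sites with enough reads (61.0%). Against the wild-type mean the differences were -15.0 points at Gip, -24.5 at Myo15 and -11.7 at Strc, where the mean over all listed sites was -3.88. At 17 of the 22 sites this library lay below both wild-type libraries (30.6% of all sites). At 7 of 21 sites it was at least 20 points below their mean (17.0%), and at 0 of 21 as far above it (8.56%). Of the distance from Uhrf1-/- to wild type, 80.3% was regained at Gip, 70% at Myo15 and 84.3% at Strc, beside 90.2% over all sites. The windows were picked for high values in these wild-type libraries and low values in these Uhrf1-/- libraries. That choice favours a rescue below the first and above the second, so both sets of counts are descriptions and were not tested.

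Myo15 was the lowest window in this rescue. Its 5 minus-strand sites averaged 57.8%, from 34.0% to 73.6%, and the plus-strand site measured 85.7% in 14 reads (Wilson 95% interval 60.1% to 96.0%), an interval that overlaps that of 60479882 (60.4% to 83.6%). No test between the strands was run, and strand and position in the window cannot be told apart. In the authors' deposited table the wild-type rescue was lower than wild type, with a q-value under 0.05 and at least 20 points, at 4 of 6 Myo15 sites, 1 of 7 Gip sites and 2 of 9 Strc sites, beside 13.5% of all sites. The lowest of these q-values in the authors' deposited table was 1.92e-07, at Myo15 60479828, with a difference of -54.9 points.

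Replacing 3 lysines of UHRF1 by arginine went with much lower methylation than the unchanged protein at every Gip site, at every tested Myo15 site and at 5 of the 8 tested Strc sites. This comparison did not use the libraries that picked the windows, but it is not independent of that choice. Over all sites the wild-type rescue regained 90.2% of the distance from Uhrf1-/- to wild type, and the 3KR rescue 14.1%. Windows picked for a wide distance therefore favour a wide gap between the rescues, and the shares below are descriptions. Sites with at least 10 reads in both rescues were compared by a two-sided Fisher's exact test, adjusted by the Benjamini-Hochberg method over the 11900 such sites of the table, and called at an adjusted p under 0.05 and at least 20 points. The test compares the reads of 2 libraries, not the conditions. Of the 20 tested sites, 17 were called lower and 0 higher, where 45.9% of all tested sites were called lower and 0.244% higher. By size alone, 17 of 20 were at least 20 points lower (57.0%). The median difference of the 22 sites was -47.6 points, beside -26.4 over all listed sites and -33.6 over sites marked as promoter outside islands and shores.

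The 7 Gip sites differed by between -73.6 and -42.4 points. The widest gap was at 96024919, with 64 of 81 reads methylated in the wild-type rescue and 2 of 37 in the 3KR rescue (Fisher's exact test, adjusted p = 8.00e-13). Myo15 had 5 tested sites, which differed by between -73.6 and -34.0 points, the widest at 60479882 with 39 of 53 against 0 of 27 (Fisher's exact test, adjusted p = 8.72e-10). The plus-strand site of Myo15 had 8 reads in the 3KR rescue and was left out of the test. At Strc the called sites differed by between -66.8 and -36.5 points, the widest at 121375179 with 33 of 38 against 3 of 15 (Fisher's exact test, adjusted p = 4.29e-05). The 3 Strc sites that were not called were neighbours. The difference was 3.04 points at 121375222 (adjusted p = 1), -19.2 at 121375232 (adjusted p = 0.199) and -1.21 at 121375267 (adjusted p = 1, Fisher's exact test each). At these depths of 16 or 17 reads the 3KR intervals spanned 38.6% to 81.5% at 121375222 and 46.9% to 86.7% at both of the others.

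When the single libraries were given the spread between replicate libraries of wild type and Uhrf1-/-, no call held. That does not show that the levels were alike, since the test called almost nothing in the whole table. This edgeR quasi-likelihood test called 0 of the 20 sites, with 4 lower at an unadjusted p under 0.05, and 1 site lower and 0 higher in the whole table.

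**Figure D3:**
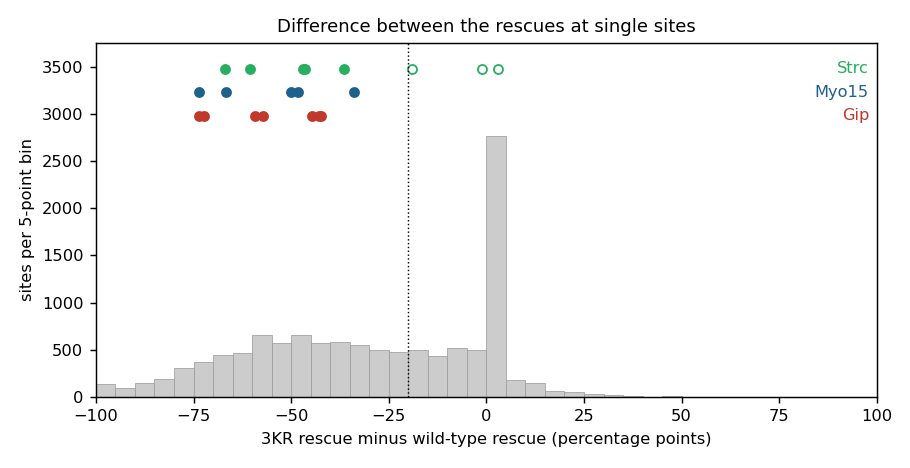
Difference between the rescues, 3KR minus wild type, in percentage points (x axis), with the number of sites per bin (y axis, gray bars) for the 11900 sites with at least 10 reads in both libraries. Points mark the 20 tested sites of Gip, Myo15 and Strc. By Fisher's exact test 17 were called lower, beside 45.9% of all tested sites, and the choice of windows favours such calls. The 3 that were not called belong to Strc.

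The window mean of the 3KR rescue was higher at Strc than at Gip and Myo15 in this 1 colony. At Strc it lay 26.1 points above the Uhrf1-/- mean, and 29.0 or 23.2 points above it without Uhrf1-/- library 1 or 2. At Gip it lay 5.16 points above, and 7.51 or 2.81 without those libraries, and at Myo15 5.80 points above, and 1.37 or 10.2 without them. Most of the difference at Strc came from 121375222, 121375232 and 121375267, where 34 of 50 reads were methylated in the 3KR rescue against 0 of 50 and 6 of 43 in the Uhrf1-/- libraries. The other 6 Strc sites had 17 of 85 in the 3KR rescue against 16 of 86 and 3 of 73, and among them 121375301 measured 26.7% against 11.8% and 0%. These 3 sites were set apart after their values were seen, so the sums are a description. By size, 4 of 7 Strc sites with enough reads were at least 20 points above Uhrf1-/-, 1 of 4 at Gip and 0 of 5 at Myo15, beside 15.8% of all sites. The 3KR rescue lay above both Uhrf1-/- libraries at 7 of 9 Strc, 3 of 7 Gip and 2 of 6 Myo15 sites (32.4% of all sites). At Myo15 the higher mean came with the shallow plus-strand site, and with reads pooled over the window the difference was -0.0425 points. Of the distance from Uhrf1-/- to wild type, the 3KR rescue covered 6.77% at Gip, 7.11% at Myo15 and 35.0% at Strc, beside 14.1% over all sites. Compared with wild type, it was at least 20 points lower at 19 of 20 sites with enough reads (51.8%).

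For comparison, sites of the rescue table no more than 100 bases apart were joined into 1359 clusters of at least 3 sites and 30 reads per library. Of these, 457 averaged at least 70% in wild type, a level set after the values were seen. Their median was 74.7% in the wild-type rescue (quartiles 63.2% and 83.3%) and 24.4% in the 3KR rescue (quartiles 14.7% and 34.6%). The clusters were not matched on their Uhrf1-/- level, while the windows were also picked for low values there. That choice can favour a low place of a window in the 3KR rescue. Gip lay within the quartiles in both rescues and Myo15 below the lower quartile in both. Strc lay within them in the wild-type rescue and above the upper quartile in the 3KR rescue, where 78.8% of the clusters were lower.

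In the Mof knockdown most sites of the 3 genes stayed methylated, with low values at single sites. The comparison uses the wild-type libraries that picked the windows for high values, which favours a lower knockdown, so its differences and calls are descriptions that support nothing about these genes. The window means were 73.3% at Gip, 54.5% at Myo15 (5 sites) and 75.8% at Strc, beside 86.8% ± 4.73, 89.6% ± 1.04 and 84.9% ± 4.82 in wild type over the same sites (SD, n = 2 each). The differences were -13.5, -35.1 and -9.10 points, and the mean over all sites of the table was -8.74. The Strc difference was -5.70 points without wild-type library 1 and -12.5 without library 2. At 16 of 21 sites the knockdown lay below both wild-type libraries (33.6% of all sites). By size, 5 of 19 sites with enough reads were at least 20 points lower (21.2%) and 0 of 19 as much higher (4.34%). Fisher's exact test against the pooled wild-type reads, adjusted over 6679 sites, called 3 of 19 sites lower and 0 higher, beside 9.07% lower and 1.24% higher over all tested sites.

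Sites called by Fisher's exact test were next to sites that were not called. Gip 96024919 had 24 of 40 methylated reads against 26 of 26 and 74 of 83 in wild type. Strc 121375206 had 0 of 14 against 6 of 15 and 15 of 21, while its neighbours 121375179 and 121375222 measured 85.7% and 57.1%. Of these neighbours, 121375222 was also lower by size, with a difference of -21.5 points, but was not called. Myo15 60479837 had 2 of 10 against 30 of 38 and 11 of 15, and its neighbours 60479828 and 60479876 both measured 80%. Without wild-type library 1 the Myo15 site was no longer called, and without wild-type library 2 the Strc site was not. The Gip site was called without either. Another Myo15 site, 60479909, had 1 of 8 reads methylated, too few for the test, and the authors' deposited table gives it a q-value of 0.000727. In all, the authors' deposited table has 3 of 5 Myo15 sites, 1 of 7 Gip sites and 1 of 9 Strc sites lower with a q-value under 0.05 and at least 20 points, beside 12.3% of all sites. The edgeR test with the spread of the wild-type libraries called 0 of the 19 sites, with 1 lower at an unadjusted p under 0.05, and 0 in the whole table.

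**Figure D4:**
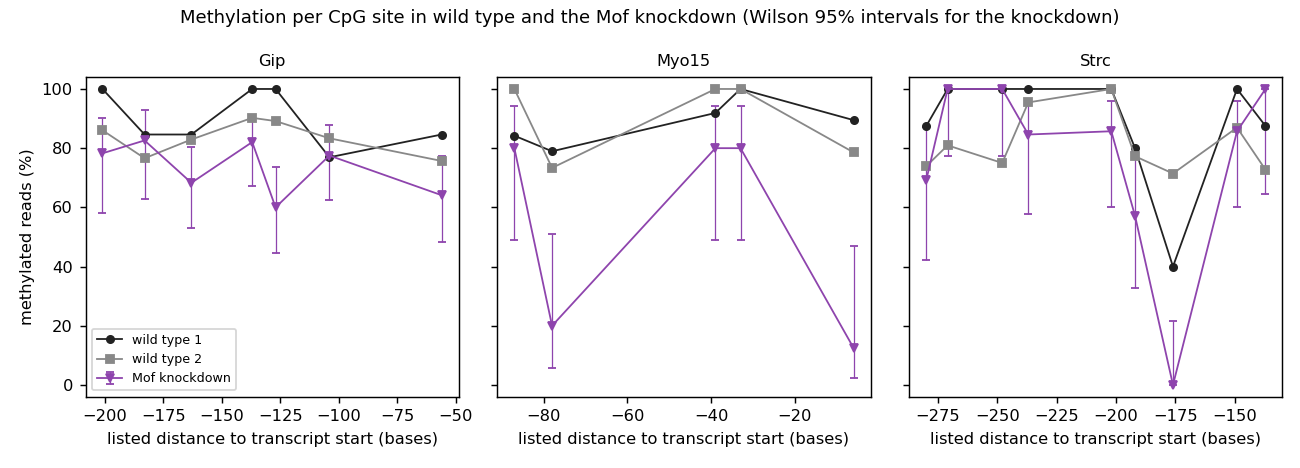
Percent of methylated reads (y axis) at each site against the listed distance to the transcript start (x axis) for wild type and for the Mof knockdown, the latter with Wilson 95% intervals. Most knockdown points lie at 57.1% or above, with low values at 2 Myo15 sites (20% and 12.5%) and at 1 Strc site (0%).

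Other genes of the inner ear were sampled at few sites. Of 40 such genes, 11 had sites in the gene or within 1000 bases of it in the rescue table, 60 sites in all. Uhrf1-/- was at least 20 points lower at 17 of the 20 with enough reads and higher at 0, beside 54.6% lower over all sites. The median difference was -53.6 points over the 60 sites, beside -43.4 over all. The list and all sites were not matched on wild-type level, and sites with little methylation there cannot fall by 20 points. Neighbouring sites of a gene can also share reads. Between the rescues, 13 of 31 tested sites were called lower with the 3KR protein and 0 higher by Fisher's exact test, where 45.9% of all tested sites were lower, a share near that of the list. Whrn, which encodes the scaffold protein whirlin that MYO15 carries to stereocilia tips, had 11 sites. Its means were 82.3% and 81.8% for wild type, 1.30% and 8.26% for Uhrf1-/-, 77.0% for the wild-type rescue and 9.09% for the 3KR rescue, at 5 to 16 reads, and none of its sites had the depth for the test. Triobp, an actin-bundling protein of stereocilia rootlets, had 18 sites and was called at 0 of the 10 tested. Gjb6, a connexin of cochlear supporting cells, was called lower with the 3KR protein at 4 of 4 sites, and Cacna1d, a calcium channel subunit of inner hair cells, at 4 of 8. Of 12 tested inner-ear sites in the knockdown table, 0 were called in either direction by Fisher's exact test, beside 9.07% lower and 1.24% higher over all tested sites, and at that share so few sites say little.

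Gut and pancreatic hormone genes were barely sampled. Of 30 genes, Tac1 and Gipr had sites in the rescue table, 5 in all, and 0 of these had enough reads in wild type and Uhrf1-/-. Gipr, the receptor for the Gip peptide, measured 0% in every wild-type and Uhrf1-/- library at its 1 site. By Fisher's exact test 0 of 4 tested sites were called between the rescues (45.9% of all tested sites lower) and 0 of 6 in the knockdown (9.07% lower), too few to set against those shares.

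The clusters most like each window were those with the smallest root mean square difference over the 6 libraries of the rescue table, a description of levels that share libraries. For Gip these overlapped Tcra, no RefSeq gene (chr11:120295357-120295406) and Mtus1, at 2.81, 4.14 and 4.78 points. For Myo15 they overlapped Mdga1, Gm9828 and Irf2, at 4.61, 4.93 and 5.39 points. The clusters nearest to Strc overlapped Zmiz1, Dhx38 and Eif4a3l1, at 3.33, 4.21 and 4.30 points, and measured 30.1% to 34.8% in the 3KR rescue. These clusters were picked for the smallest differences, so the distances between the 3 genes are not set against theirs. Gip and Myo15 were 6.72 points apart, with 41 of the 1359 clusters nearer to Gip and 16 nearer to Myo15. Gip and Strc were 8.60 points apart (96 nearer to Gip, 77 to Strc). Myo15 and Strc were 12.6 points apart (201 nearer to Myo15, 252 to Strc). All 3 windows were picked for high wild-type and low Uhrf1-/- values, which favours likeness.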

How the data were processed

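The submitters' processing notes name Trim Galore, cutadapt, BSMAP 2.73 and the build mm10; their order and settings, the methylation caller and the authors' test were not given in the sources used here. Per the file headers, the authors deposited counts of total, methylated and unmethylated reads per cytosine, the fraction methylated, and p-values and q-values with the difference of each group from wild type. The smallest depth listed in any library was 5 reads. Where RefSeq promoter sequences covered listed sites, 559 of 559 and 614 of 616 were CpG. Wild-type reads were identical at all 12282 sites that the tables share, 21 of them in the windows.

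Percentages were computed from the counts, and window levels are unweighted means over sites. Fisher's exact test and edgeR 4.0.16 (R 4.3.3), run on all sites with at least 10 reads, were tested on simulated data. Alternatives were edgeR in place of Fisher's test, read minimums of 5 and 20, a minimum of 40 points, pooled reads and leaving out libraries. Python 3.11.15, numpy 2.4.6, pandas 2.3.3, scipy 1.17.1 and matplotlib 3.10.9 were used.

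Every site in the windows is reported; other genes came from lists of 40 inner-ear and 30 hormone genes, and the 3 nearest clusters were named for each window. Members and lists were chosen with earlier results of these data known.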

Additional observations from a re-analysis of the deposited data

How the results depend on the processing

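Of the 54 alternative values of window differences, 52 kept their direction and moved by less than their spread, and 37 of the 43 alternative window levels did the latter. Most of the 54 leave out 1 library of a pair, which always moves a mean by less than the spread of that pair. For those alternatives only the direction could have changed. The Myo15 level in the 3KR rescue was 5.80% with pooled reads and 3.33% over sites with at least 10 reads in every library, in place of 11.1%, and the Gip level in Uhrf1-/- library 1 was 5.72% over such sites in place of 12.9%. The other levels that moved were those of Myo15 in wild type, at 88.5% to 90.4%. With reads pooled over sites, the 3KR rescue minus Uhrf1-/- at Myo15 was -0.0425 points in place of 5.80, and the Mof knockdown minus wild type at Myo15 was -33.6 points in place of -35.1. Between the rescues, 18 of 22 sites were called lower with at least 5 reads, 11 of 11 with at least 20 reads, where fewer sites could be tested, and 15 of 20 with at least 40 points, against 17 of 20. In the knockdown 4 of 21 were called with at least 5 reads, 1 of 5 with at least 20, against 3 of 19, and 2 without either wild-type library. With edgeR 0 were called in both comparisons, which does not show that levels were alike. Where no site of a window had 20 reads in every library, that alternative gave no value. No paired analysis was possible because the only comparison whose libraries share numbers, Uhrf1-/- against wild type, picked the windows and so carries no test to which a block could be added. Depth limits most sites: at 10 reads, 1 read is worth 10 points.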

Other observations

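Some inner-ear and hormone genes had sites in the knockdown table alone. Otog, which encodes otogelin of the acellular membranes of the inner ear, measured 79.4% and 92.3% in wild type and 82.4% in the Mof knockdown over 5 sites. Esrrb, a nuclear receptor expressed in embryonic stem cells and needed for hearing, was nearly unmethylated, at 3.70% and 4.63% in wild type and 0% in the knockdown over 9 sites. Pax6, a transcription factor of endocrine cells, measured 80.8% and 73.9% in wild type and 64.2% in the knockdown over 7 sites. At Chga, the gene of chromogranin A, the wild-type libraries were far apart, at 33.3% and 80%, with 81.8% in the knockdown over 5 sites.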
